A study of Danio rerio with 10 samples.

Results

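Genes of the extracellular matrix and its cell-surface receptors were examined in sorted zebrafish somite progenitors: collagens, laminins, integrins, fibronectins and hyaluronan synthases. Members were chosen by a rule on gene symbols, with earlier results of these data known. The rule (*col* and a number, *lama*, *lamb* or *lamc* and a number, *itga*, *itgb*, *fn1*, or *has* and a number) gave 54 RefSeq records of 54 genes among the 14720 records counted. The method was CEL-seq, in which a short stretch at the 3′ end of each RNA is read, on 10 libraries of wild-type AB embryos. In 5 libraries (spt_cMO) the embryos carried 2 caged reagents, a fluorescein-dextran tracer and a morpholino against *spadetail*, the older name of the mesodermal T-box gene *tbx16*. In 5 others (control) they carried the tracer alone. Morpholinos are antisense oligonucleotides, and a caged one is inactive until light frees it. In both groups the ventral somite progenitors of embryos at 6 hpf (hours post-fertilization) were exposed to 360 nm light over a circle 100 µm wide. The fluorescent cells were collected by sorting at 9 hpf, near the end of gastrulation. The controls carried no morpholino, so loss of *tbx16* and other effects of a morpholino cannot be told apart.

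Fibronectin is a secreted glycoprotein that cells pull into fibrils through integrins, which are surface receptors of one alpha and one beta subunit. In fish, fibronectin and the integrin alpha 5 subunit are needed to form and keep somite borders. Laminins are trimers of an alpha, a beta and a gamma chain and, with type IV collagen, form basement membranes. Hyaluronan is a large sugar polymer made at the cell surface by the Has enzymes, and in zebrafish Has2 is needed for cells to converge toward the midline during gastrulation.

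The spt_cMO libraries held between 2036973 and 9374914 counts and the control libraries between 3365785 and 7968446. *tbx16* itself was at 526 ± 100.3 CPM in spt_cMO and 386 ± 45.1 CPM in control (SD, n = 5 each), which did not pass in edgeR's quasi-likelihood test (adjusted p = 0.0897, and 0.0172 when the replicate number was a block). CPM is a record's count per 1000000 counts of its library in the records kept for the test, after TMM scaling. Markers of the labelled cell type and of other types were read as lists, chosen with earlier results of these data known. No list was made for the ventral part of the label. The presomitic mesoderm list had the highest sums of these lists in every library, in large part through *msgn1*. For comparison with the calls in each list, 0.807% of all 6570 tested records were called higher in spt_cMO and 0.974% lower. A call is an adjusted p under 0.05 in edgeR's quasi-likelihood test. In either direction the share was 1.78%, and 2.75% in the fit that had the block. The presomitic mesoderm list summed to between 2971 and 4526 CPM in spt_cMO libraries and between 6722 and 8842 CPM in control libraries, with 5 of 9 kept records lower and none higher in spt_cMO. A single member carried most of that gap: *msgn1* averaged 2029 ± 632 CPM in spt_cMO and 5838 ± 774 CPM in control. Without it the sums overlapped, at 1400 to 1989 CPM in spt_cMO and 1729 to 2257 CPM in control. The listed marker *tbx6* was not kept, at 0.892 ± 0.920 CPM in spt_cMO and 2.11 ± 1.18 CPM in control. When the replicate number was a block, 6 of the 9 were lower, *mespab* (adjusted p = 0.00386, against 0.414 without the block) being added, and *tbx16* was higher. Notochord and axial markers summed to 471 to 554 CPM in spt_cMO and 363 to 432 CPM in control, with 2 of 6 kept records higher. Most of these sums came from *tbxta*, at 439 ± 44.2 CPM in spt_cMO and 338 ± 21.3 CPM in control. The 2 records called were *tbxta* and *shha*, the latter at 6.23 ± 2.04 CPM in spt_cMO and 1.81 ± 1.17 CPM in control. *shhb* and *chrd* of this list were not kept. A filter keeps a weakly expressed gene such as *shha* where 1 group is high, so 2 of 6 describes the kept records only. *noto*, *foxa* and *foxa3* had positive log2 fold changes that did not pass. *foxa2* had the lower mean in spt_cMO, at 15.3 CPM against 17.6 CPM in control, and did not pass. Enveloping layer and epidermis markers (662 to 1203 CPM in spt_cMO, 782 to 1769 CPM in control) had no call among 8 kept records. The largest part of these sums was *gata2a*, at 491 ± 236 CPM in spt_cMO and 901 ± 330 CPM in control. *krt8* (168 CPM in spt_cMO, 135 CPM in control) and *krt4* (51.6 CPM in spt_cMO, 42.5 CPM in control) lay the other way. Endoderm markers (113 to 179 CPM in spt_cMO, 149 to 178 CPM in control) had no call among 3. The neural ectoderm list (285 to 437 CPM in spt_cMO, 309.9 to 417 CPM in control) had 1 of 7 higher. The lateral and intermediate mesoderm list (116 to 161 CPM in spt_cMO, 127 to 187 CPM in control) had 1 of 4 lower. Germ cell markers (22.9 to 52.9 CPM in spt_cMO, 38.5 to 66.2 CPM in control) had no call among 3. No record of the blood and endothelium list or of the yolk syncytial layer list was kept; these summed to at most 3.82 and 9.79 CPM in any library, and *apoa1b* was at 0 throughout.

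Of the members' transcripts counted at 9 hpf, most were fibronectin. The symbol rule fits 114 RefSeq symbols. Those without a record, and matrix genes outside the rule, are not in these shares. The 2 fibronectin genes made up 78.1% ± 2.61 of the members' summed CPM in spt_cMO and 80.7% ± 2.14 in control (SD, n = 5 each). Integrin subunits came next with 11.5% ± 2.39 in spt_cMO and 9.98% ± 0.877 in control, and laminins took 6.11% ± 1.08 in spt_cMO and 5.08% ± 0.775 in control. All 24 collagens together took 2.14% ± 0.454 in spt_cMO and 1.55% ± 0.452 in control. These shares are of 3′ tags, which a method of this kind does not scale by transcript length. Reads beyond a record's annotated 3′ end may be missing from its count, which was not tested.

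Of the 54 members 13 had enough counts to be kept for the test, which asks for the CPM that 10 counts make at median depth in at least 5 libraries. Of all 14720 records 6570 were kept, and 1712 were at 0 in every library. The 13 are named here by family. The kept members were both fibronectins, 1 of 3 hyaluronan synthases (*has2*), 4 of 14 integrin subunits (*itga5*, *itgav*, *itgb5* and *itgb1b.1*), 4 of 9 laminins (*lama1*, *lama5*, *lamb1a* and *lamc1*), 1 of 24 collagens (*col11a1a*), and *itgb1bp1*, which encodes a protein that binds an integrin tail and is no subunit. Of the other 41 members, 40 had some counts and *itgb3a*, an integrin beta subunit known from blood platelets, had none in any library, which (as 3 counts) allows it up to 0.32 CPM in spt_cMO replicate 1 and 1.47 CPM in spt_cMO replicate 2. Among the 41, 16 had at most 10 counts over all 10 libraries, 17 had 11 to 50 and 8 had more than 50. Those 8 were the collagens *col8a1a*, *col4a5*, *col1a2*, *col2a1b* and *col9a2*, the laminin receptor subunit *itga6b*, and *itgb1a* and *itgb1b*, with mean levels between 1.44 and 2.63 CPM.

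**Figure D1:**
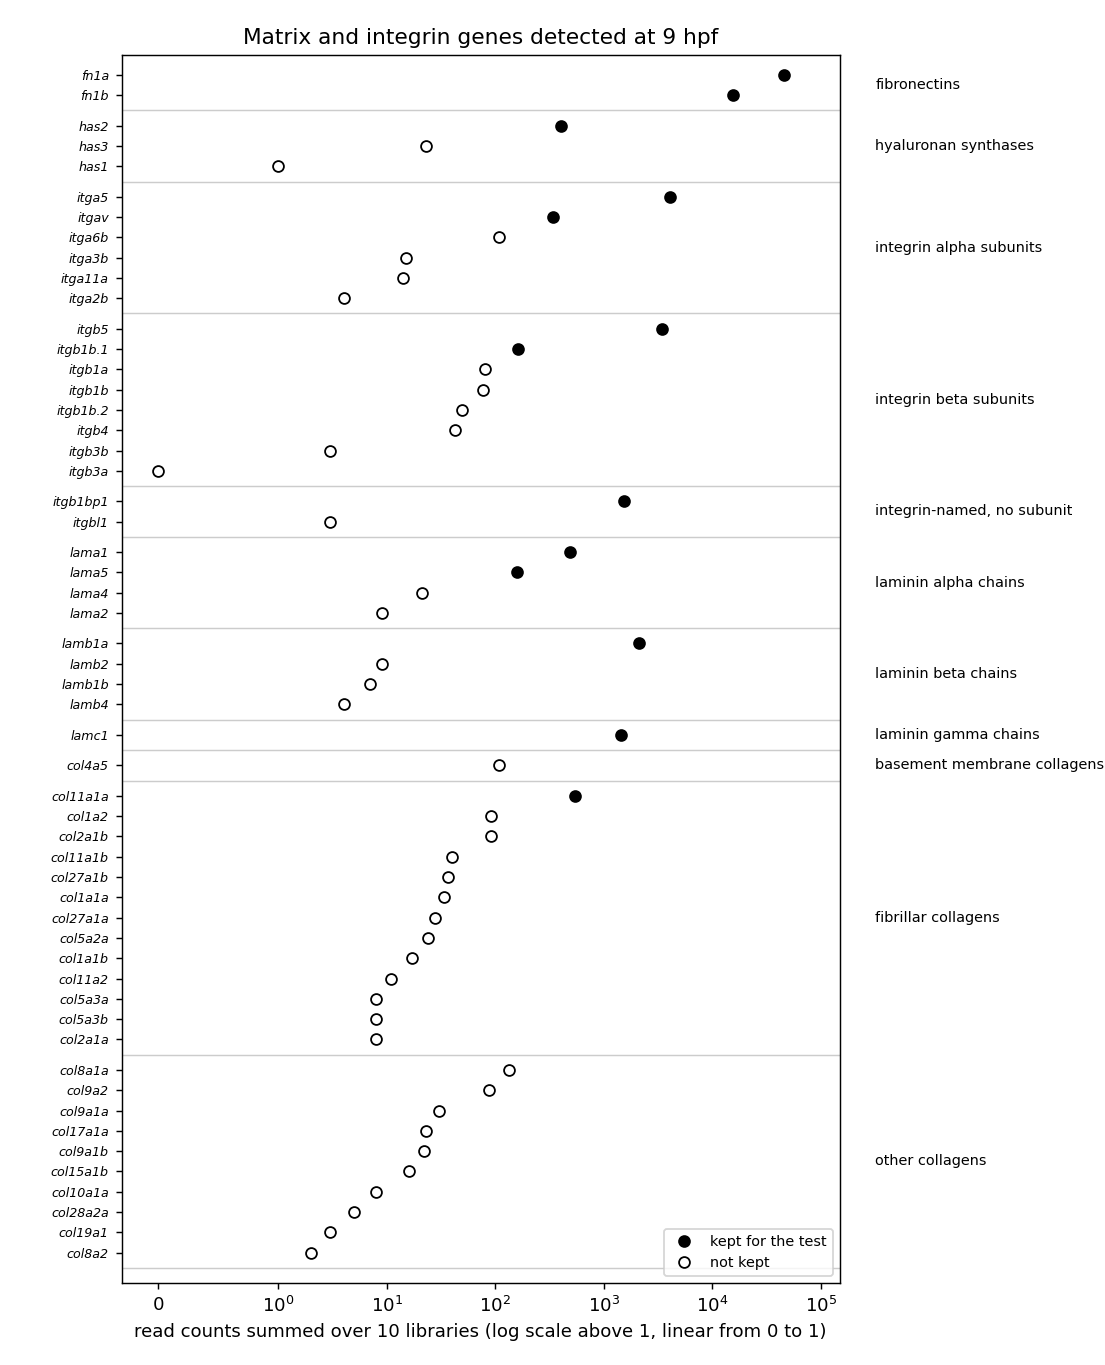
Read counts summed over the 10 libraries (x axis, log scale above 1) for all 54 members, grouped by subfamily, with filled points for the 13 kept for the test. *fn1a* and *fn1b* lie far to the right with 45894 and 15407 counts, and most collagens lie under 100.

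The rest of the collagens were near the limit of detection. Of 13 fibrillar collagens, which build the rope-like fibres of connective tissue, 12 were not kept, and the highest of those, *col2a1b*, averaged 2.09 CPM. *col1a1a* and *col1a2*, chains of type I collagen, had 34 and 92 counts in all, and *col2a1a*, the type II collagen gene of notochord and cartilage, had 8. The one type IV collagen counted, *col4a5*, had 109 counts. Among laminin chains *lama4*, *lama2*, *lamb2*, *lamb1b* and *lamb4* had between 4 and 21 counts each. Among integrin subunits, *itgb4*, a subunit of epithelial hemidesmosomes, had 43 counts, and *itga3b*, *itga11a*, *itga2b* and *itgb3b* had 3 to 15. *has3* had 23 counts, *has1* had 1 and *itgbl1* had 3. *itgb1b.2* had 49.

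Among the kept members the order of mean level over all libraries ran from *fn1a* through *fn1b*, *itga5*, *itgb5*, *lamb1a*, *itgb1bp1*, *lamc1*, *col11a1a*, *lama1*, *has2*, *itgav* and *itgb1b.1* to *lama5*. In this order *fn1a* lay above *fn1b*, and *fn1b* above *itga5*, in every library of both groups. Neighbours further down overlapped in their library values in at least one of the groups.

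**Figure D2:**
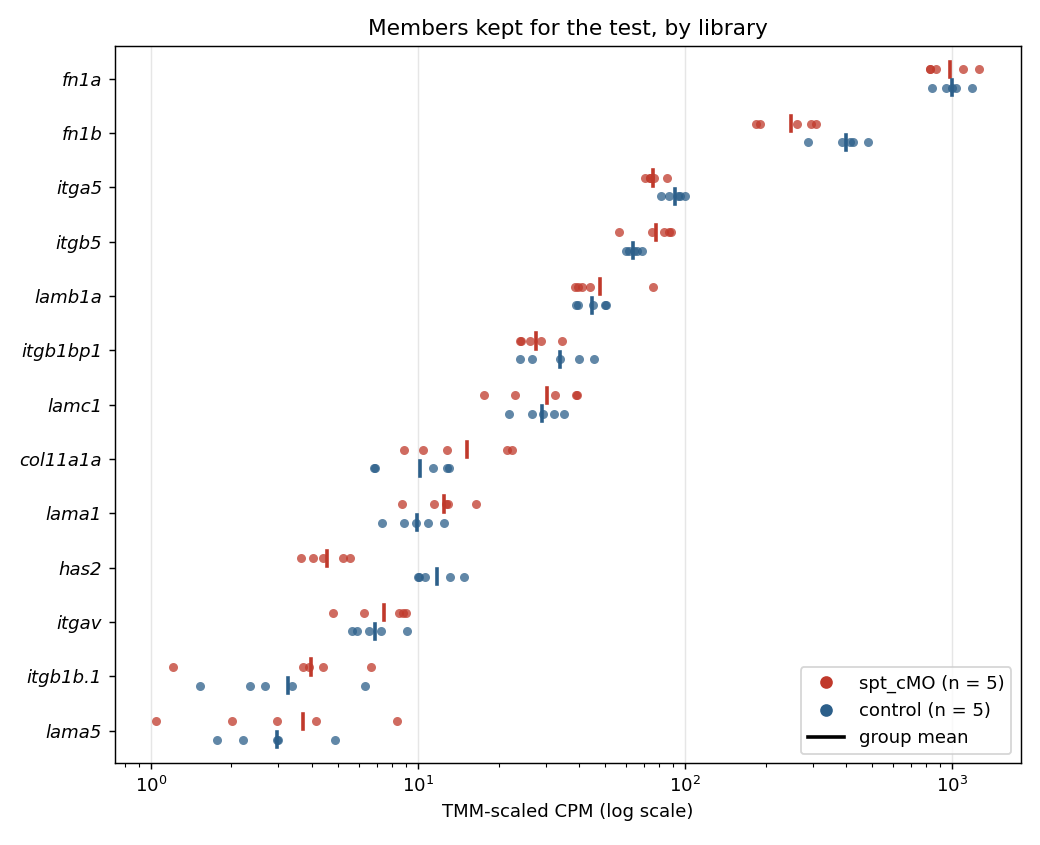
TMM-scaled CPM (x axis, log scale) of each kept member in 5 spt_cMO libraries (red, upper row of each gene) and 5 control libraries (blue, lower row), with group means as bars. Only for *has2* do all spt_cMO points lie to the left of all control points.

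The comparison asked which transcripts of these progenitors differ with the caged morpholino. Of the 13 kept members 2 fell in spt_cMO, *has2* and *fn1b*, none rose and 11 did not pass an adjusted p of 0.05 (edgeR's quasi-likelihood test, Benjamini-Hochberg over all 6570 records tested). Over all records 1.78% were called, 0.807% as higher and 0.974% as lower. By subfamily, the calls were 1 of 2 fibronectins and the 1 hyaluronan synthase kept, and none of 4 laminins, 4 integrin subunits or 1 collagen. The median log2 fold change was 0.07 over the 13 kept members and 0.00 over all 6570 records, and 8 of the 13 were positive. Because a filter keeps a weakly expressed gene where 1 group is high, these counts describe the kept members and not all 54. In sorted bulk cells, fewer cells of a type and less RNA per cell cannot be told apart.

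**Figure D3:**
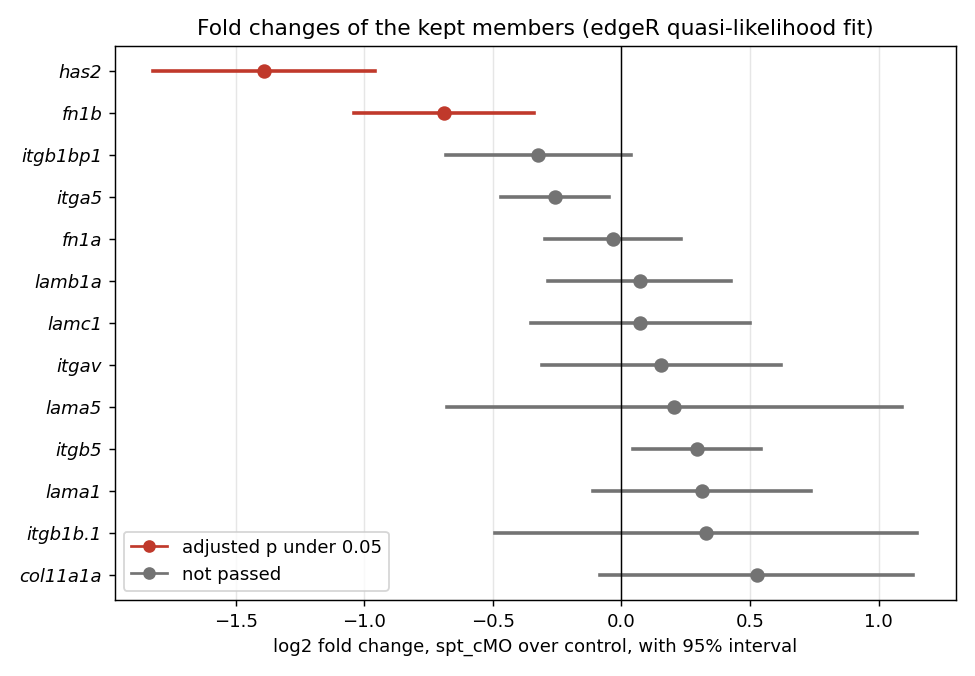
Log2 fold change of spt_cMO over control (x axis) with its 95% interval for the 13 kept members, in red where the adjusted p was under 0.05. The intervals of *has2* and *fn1b* lie below 0, those of *itga5* and *itgb5* lie on opposite sides of 0 without passing the adjusted threshold, and the other 9 span 0.

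The hyaluronan synthase gene *has2* had the largest fold change of the kept members. It was counted at 4.03, 4.40, 5.53, 3.65 and 5.23 CPM in spt_cMO libraries 1 to 5, against 10.1, 10.6, 14.9, 10.003 and 13.2 CPM in control libraries 1 to 5. Every spt_cMO library lay below every control library, as was the case for 1.63% of all tested records. The means were 4.57 ± 0.794 CPM in spt_cMO and 11.7 ± 2.16 CPM in control (SD, n = 5 each). The fitted log2 fold change was -1.39 (SE 0.21, adjusted p = 0.000467), which is 2.62-fold lower. The level is low, and the values rest on 38, 9, 15, 14 and 13 counts in spt_cMO and 40, 85, 50, 47 and 95 in control. Without each single library the log2 fold change stayed between -1.46 and -1.30 and the call was kept (adjusted p up to 0.00494). Of the presomitic mesoderm markers given above, 5 of 9 were lower in spt_cMO too, and their part in this difference was not tested. *has3*, another synthase of the same family, had the higher mean in spt_cMO. It had 16 counts in spt_cMO (0.905 ± 0.589 CPM) and 7 in control (0.221 ± 0.255 CPM), too few for the test. *has1* had 0 counts in spt_cMO and 1 in control.

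The hyaluronan pathway around *has2* gave no call. Of 14 genes listed for hyaluronan precursors, binding and breakdown 7 had a record and 3 were kept: *ugdh*, which makes the sugar nucleotide that Has enzymes use, at a log2 fold change of -0.19 (SE 0.15), the hyaluronan receptor gene *hmmr* with -0.15 (SE 0.12), and *cemip2*, linked to hyaluronan breakdown, with 0.06 (SE 0.13). None of the 3 passed.

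The fibronectin genes *fn1a* and *fn1b* are duplicate copies. The less abundant of them, *fn1b*, fell in spt_cMO. It was counted at 184, 309, 296, 263 and 191 CPM in spt_cMO libraries 1 to 5, against 425, 386, 483, 288 and 416 CPM in control libraries 1 to 5. All 5 spt_cMO libraries lay below the control mean, but the groups overlapped because control replicate 4 was lower than spt_cMO replicates 2 and 3. The means were 249 ± 58.2 CPM in spt_cMO and 399.6 ± 71.6 CPM in control (SD, n = 5 each). The fitted log2 fold change was -0.69 (SE 0.16, adjusted p = 0.047), which is 1.61-fold lower.

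The call of *fn1b* stood close to the threshold. It was lost without control replicate 1 (adjusted p = 0.112), 2 (0.079), 3 (0.11) or 5 (0.118) and without spt_cMO replicate 1 (0.0941), 4 (0.0958) or 5 (0.0901), while the log2 fold change stayed between -0.78 and -0.59 over all 10 omissions. Without control replicate 4, the lowest control library, the adjusted p was 0.00923. With all libraries the same test gave adjusted p from 0.0429 to 0.0481 with the replicate block, RLE scaling or the CPM filter. It gave 0.00772 with no filter, and DESeq2 gave 0.00304. The part of the 5 lower presomitic mesoderm markers in this difference was not tested.

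The more abundant copy, *fn1a*, did not pass. It was counted at 872, 1264, 1102, 829 and 823 CPM in spt_cMO libraries 1 to 5, against 999.5, 843, 949.96, 1181 and 1029.6 CPM in control libraries 1 to 5. The groups overlapped along most of their range, and spt_cMO replicate 2 held the highest value. The means were 978 ± 196 CPM in spt_cMO and 1001 ± 123 CPM in control, a log2 fold change of -0.03 with a 95% interval from -0.30 to 0.23 (adjusted p = 0.976).

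**Figure D4:**
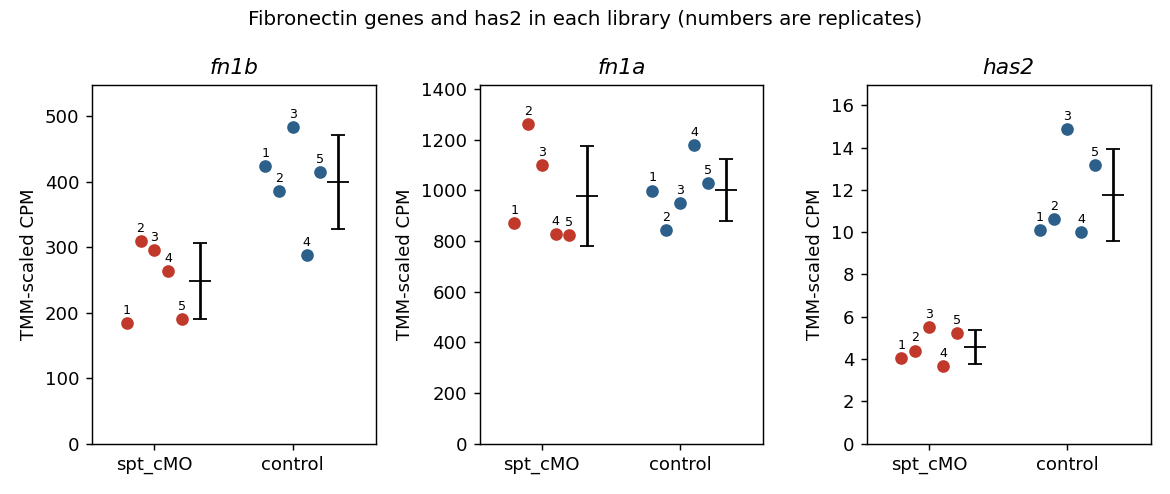
TMM-scaled CPM (y axes, from 0) of *fn1b*, *fn1a* and *has2* in each spt_cMO (red) and control (blue) library, labelled by replicate number, with the mean and SD at the right of each group. *fn1b* is lower in spt_cMO with control replicate 4 inside the spt_cMO range, *fn1a* overlaps, and *has2* separates.

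Set against each other within a library, *fn1b* made 0.255 ± 0.0408 counts per *fn1a* count in spt_cMO and 0.408 ± 0.0998 in control (SD, n = 5 each). The ratio was 0.211, 0.245, 0.268, 0.318 and 0.232 in spt_cMO libraries 1 to 5 and 0.425, 0.458, 0.509, 0.244 and 0.404 in control libraries 1 to 5. Of the control libraries, 4 lay above every spt_cMO library and replicate 4 lay among them. On the log2 scale with 1 CPM added, the ratio averaged -1.98 ± 0.22 in spt_cMO and -1.33 ± 0.41 in control, a difference of -0.65 (2-sided exact permutation p = 0.0317; 1 pair tested). By replicate number it was lower in 4 of 5 pairs, and exact sign flips gave p = 0.125, where 5 pairs allow no less than 0.0625. The exact permutation p was 0.0556 without spt_cMO replicate 1 or 5 or control replicate 1, 2 or 5, and 0.0635 without control replicate 3. Without control replicate 4 the difference was -0.82 (exact permutation p = 0.00794, the smallest that this test can give with that library omitted).

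**Figure D5:**
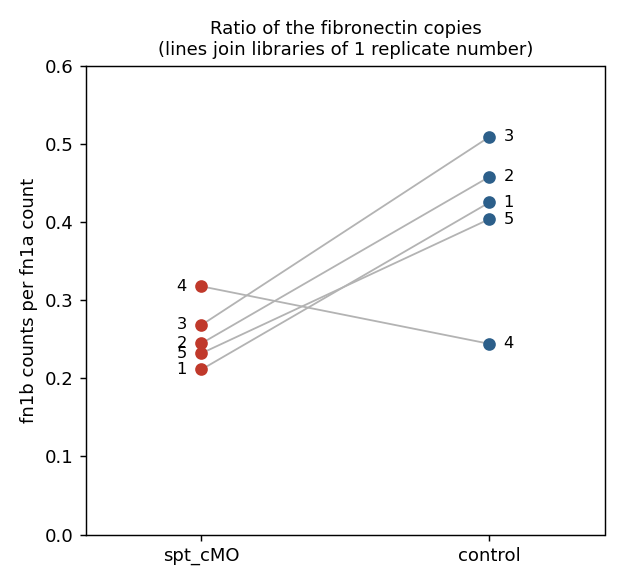
Counts of *fn1b* per count of *fn1a* (y axis, from 0) in 5 spt_cMO libraries (red) and 5 control libraries (blue), with lines between libraries of the same replicate number. The spt_cMO values lie between 0.211 and 0.318 and 4 control values between 0.404 and 0.509, while control replicate 4 lies at 0.244.

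Integrins, the receptors of these matrix proteins, gave no call. The leading alpha subunit gene *itga5*, whose product is the main fibronectin receptor subunit of early mesoderm, was counted at 85.3, 70.96, 74.2, 76.2 and 73.6 CPM in spt_cMO libraries 1 to 5, against 100.03, 86.7, 95.7, 94.1 and 81.3 CPM in control libraries 1 to 5. All 5 spt_cMO libraries lay below the control mean, and only spt_cMO replicate 1 reached into the control range. Its log2 fold change was -0.26 (SE 0.10, 95% interval -0.47 to -0.05), which did not pass in edgeR's quasi-likelihood test (unadjusted p = 0.0187, adjusted p = 0.34).

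The leading beta subunit gene, *itgb5*, whose product pairs with the alpha V subunit, lay on the other side. It was counted at 86.9, 56.8, 88.2, 82.97 and 75.2 CPM in spt_cMO libraries 1 to 5, against 65.8, 68.7, 64.2, 61.7 and 59.8 CPM in control libraries 1 to 5. In spt_cMO 4 libraries lay above all control libraries and replicate 2 lay below all of them. The log2 fold change was 0.29 (SE 0.12, 95% interval 0.05 to 0.54, unadjusted p = 0.023, adjusted p = 0.379). Omitting spt_cMO replicate 2 gave 0.39 (adjusted p = 0.0648). Every other omission of 1 library gave between 0.25 and 0.32 (adjusted p from 0.385 to 0.632 in the same test). An unadjusted p under 0.05 was reached by 9.44% of all tested records.

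Neither *itgav* nor *itgb1bp1* passed. *itgav*, the alpha V subunit, averaged 7.47 ± 1.85 CPM in spt_cMO and 6.88 ± 1.37 CPM in control (log2 fold change 0.15, 95% interval -0.31 to 0.62). *itgb1bp1* averaged 27.6 ± 4.36 CPM in spt_cMO and 34.04 ± 8.97 CPM in control (log2 fold change -0.32, 95% interval -0.68 to 0.04).

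Beta 1 subunits, the partners of alpha 5, were counted far below it. The 4 genes of that name, *itgb1a*, *itgb1b*, *itgb1b.1* and *itgb1b.2*, summed to 9.31 ± 2.75 CPM in spt_cMO and 6.79 ± 3.53 CPM in control, beside 76.05 ± 5.51 CPM of *itga5* in spt_cMO and 91.6 ± 7.49 CPM in control. Of them *itgb1b.1* alone was kept, with 3.98 ± 1.94 CPM in spt_cMO and 3.24 ± 1.83 CPM in control (log2 fold change 0.33, 95% interval -0.49 to 1.15). These are closely related copies, among which reads may have been split, and the value of each is uncertain. Whether the annotated 3′ ends of these records cover their reads was not tested, so the level of the sum beside *itga5* is uncertain too.

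None of the 4 kept laminins passed. They included the 3 chains of the trimer known as laminin 111. The zebrafish genes of these chains, *lama1*, *lamb1a* and *lamc1*, are known as *bashful*, *grumpy* and *sleepy* from mutants with defects of the notochord. *lamb1a* was counted at 41.1, 75.8, 43.9, 39.7 and 38.6 CPM in spt_cMO libraries 1 to 5, against 39.6, 50.1, 50.5, 45.3 and 38.9 CPM in control libraries 1 to 5. Without the high spt_cMO replicate 2 its log2 fold change was -0.13, against 0.07 with all libraries (95% interval -0.28 to 0.43, adjusted p = 0.963).

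*lamc1* averaged 30.4 ± 9.75 CPM in spt_cMO and 29.1 ± 5.09 CPM in control (log2 fold change 0.07, 95% interval -0.35 to 0.50). *lama1* averaged 12.5 ± 2.81 CPM in spt_cMO and 9.88 ± 1.95 CPM in control (log2 fold change 0.31, 95% interval -0.11 to 0.74). *lama5*, an alpha chain of epithelial basement membranes, averaged 3.69 ± 2.83 CPM in spt_cMO and 2.96 ± 1.19 CPM in control, with the widest interval of the 4 laminins (log2 fold change 0.21, -0.68 to 1.09). The 4 log2 fold changes were positive with all libraries, but those of *lama5*, *lamb1a* and *lamc1* turned negative without spt_cMO replicate 2, the library farthest from the others on the first principal component of all tested records. *lamc1* also turned negative without spt_cMO replicate 1 or control replicate 5.

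Collagens gave no call here, and 1 of them was called in the authors' own table. *col11a1a*, a minor chain of cartilage-type fibrils, was counted at 10.4, 21.5, 22.5, 8.87 and 12.9 CPM in spt_cMO libraries 1 to 5, against 11.3, 13.02, 12.8, 6.81 and 6.92 CPM in control libraries 1 to 5. The 2 highest values were spt_cMO replicates 2 and 3, and the rest overlapped. Its log2 fold change was 0.53 (SE 0.29, 95% interval -0.08 to 1.14, adjusted p = 0.649).

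*col8a1a*, a short-chain collagen known from the zebrafish notochord sheath, was not kept for the test and is singled out after its values were seen. It had 22, 3, 3, 9 and 3 counts in spt_cMO libraries 1 to 5, and 21, 20, 6, 23 and 24 in control libraries 1 to 5, which came to 1.69 ± 0.607 CPM in spt_cMO and 3.56 ± 1.51 CPM in control. In the authors' deposited table, which listed 16 of the 54 members, its log2 fold change was -1.08 with an adjusted p of 0.0268, 1 of 3 members called there beside *has2* (-1.35) and *fn1b* (-0.69). That table called 1.75% of its records as lower. On the same 6923 records edgeR's quasi-likelihood test without a block gave -0.91 (adjusted p = 0.357), the same test with the replicate number as a block gave -1.07 (adjusted p = 0.108), and a likelihood ratio test with that block gave -1.07 (adjusted p = 0.0307). The call of *col8a1a* therefore depended on the test.

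The remaining collagens had too few counts to be kept for the test. Tested with no filter, the 40 detected members outside the 13, collagens and others, gave no adjusted p under 0.05 (edgeR's quasi-likelihood test). An unadjusted p under 0.05 was reached by 6, among them *has3* and *itgb1a*. The share of all records in that fit was not computed, so the 6 are not read as a result. The lowest unadjusted p belonged to *col9a2*, a collagen of cartilage and notochord named after its values were seen, with 3.05 ± 1.87 CPM in spt_cMO and 1.06 ± 0.473 CPM in control (adjusted p = 0.116).

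Other genes of the matrix pathway, from lists apart from the members, gave no call among 24 kept records in the fit without a block. When the replicate number was a block, *dag1* was called higher and *p4ha2* and *efemp2b* lower. The share called of all tested records was 1.78% without the block and 2.75% with it. Of 20 listed genes for collagen folding, processing and cross-linking 17 had a record. Of these 7 were kept, with a median log2 fold change of 0.03. The collagen chaperone gene *serpinh1b* was the most counted of them, at 590 ± 86.1 CPM in spt_cMO and 452 ± 74.3 CPM in control (log2 fold change 0.38, SE 0.12, adjusted p = 0.184). When the replicate number was a block, *p4ha2*, which encodes a collagen prolyl hydroxylase, passed as lower (log2 fold change -0.46, adjusted p = 0.0229), against an adjusted p of 0.0511 without the block.

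Of 7 listed linkers of the basement membrane 3 had a record. Only *dag1*, the dystroglycan laminin receptor gene, was kept, at 69.3 ± 7.65 CPM in spt_cMO and 51.8 ± 2.70 CPM in control. Its log2 fold change was 0.41 (adjusted p = 0.0656), and it passed as higher with the block (adjusted p = 0.0413). Of 42 other matrix glycoprotein genes 29 had a record and 4 were kept, with a median log2 fold change of -0.09. Among them *efemp2b*, a fibulin gene, passed as lower with the block only (-0.47, adjusted p = 0.00659, against 0.0815 without it). Of 21 genes of the integrin adhesion complex inside the cell, such as *ilk* and the talin genes *tln1* and *tln2a*, 16 had a record. Of these 9 were kept, none passed with or without the block, and the median log2 fold change was -0.18. With the block 2.75% of all tested records were called, against 1.78% without it.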

How the data were processed

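CEL-seq libraries of 5 biological replicates in each group were compared. The authors deposited raw read counts for each RefSeq record. Alignment used the Zv8 assembly and the submitters' own CEL-seq scripts under Galaxy, per the labels' design text. The aligner, the counter and its use of strand are not given in the sources used here. The labels mention no molecular identifiers, so limits from counts cover counting error only. The authors also deposited a comparison table with log2 fold changes, a likelihood ratio score and p-values, made with edgeR per the submitters' processing notes.

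A RefSeq gene table gave symbols to 13986 of 14720 records and was used for names only. Members, subfamilies and lists were chosen with earlier results of these data known. The filter was filterByExpr (minimum count 10, minimum total 15), with TMM scaling, and the test was that of edgeR 4.0.16 (robust glmQLFit, glmQLFTest, 2-sided) in R 4.3.3; standard errors and 95% intervals come from the F statistic. The paralog ratio used a 2-sided exact permutation test. Every kept member is named, since each was called, among the 2 most abundant of its subfamily or a paralog. Lists of other cell types and pathway genes are described by counts. Both tests were tested on simulated data. For the permutation test the simulated shift was larger than the observed difference, with a spread below that of the control ratios. How often it finds a difference of the observed size was therefore not tested. Single libraries were omitted on the same 6570 records.

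Labels number the replicates 1 to 5 in both groups. Across 6570 records, libraries with 1 number in common deviated together from their groups' means, with correlations of 0.135, 0.251, 0.119, 0.203 and 0.147, all above the 0.1 set for pairing. The highest correlation with another number was 0.196, 0.00917, 0.144, 0.196 and 0.144 for replicates 1 to 5, which is above the same-number value for replicates 1 and 3. The fit without the block was kept as the main one, because the labels do not say what a replicate number shares. Values with the replicate number as a block are given where they change a call named in the text. All pairs of libraries differed by more than sampling noise (chi-square 7.53 or more for each degree of freedom).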

Additional observations from a re-analysis of the deposited data

Results flagged for a closer look

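In 72 groups of 5 libraries (36 members with 15 or more counts), 10 single libraries stood apart from the other 4 of their group by Dixon's 95% criterion. That criterion flags about 1 of 20 groups of normally distributed values, a rate that does not hold for low counts with zeros, where counts in 1 library alone always meet it. Only 1 concerns a kept member: *lamb1a* was at 75.8 CPM in spt_cMO replicate 2, with the other 4 spt_cMO libraries between 38.6 and 43.9 CPM. The same library held *col4a5* at 9.30 CPM (19 counts), with the others between 1.11 and 2.02 CPM. *itgb1a* was at 5.17 CPM (14 counts) in spt_cMO replicate 3, with the others between 1.83 and 2.02 CPM, and *col17a1a* at 1.38 CPM (13 counts) in spt_cMO replicate 1.

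The collagens *col9a1a*, *col15a1b* and *col17a1a* had most of their counts in 1 library. All 26 control counts of *col9a1a* lay in control replicate 2 (3.25 CPM), and the other 4 control libraries had none. It also had 4 counts in spt_cMO. *col15a1b* had 13 of its 15 control counts in control replicate 5 (1.80 CPM), and its 1 spt_cMO count in replicate 1 (0.106 CPM). *col17a1a* had 13 of its 23 counts in spt_cMO replicate 1 (1.38 CPM) and 7 in control replicate 2 (0.876 CPM), both flagged. The other flagged members were spread more widely. *lama4* was at 1.70 CPM (8 of its 21 counts) in control replicate 4 and *col1a1a* at 1.49 CPM (5 of its 34 counts) in control replicate 3.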

How the results depend on the processing

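Of 195 refits of the 13 kept members, 179 kept direction and side of the threshold. The 7 that lost a call were all of *fn1b*, each on omitting 1 library, and 9 changed sign in members that never passed. On omitting 1 library, the members called lower numbered 1 to 2, records called higher 36 to 57 and lower 45 to 68. The log2 fold change ranged from -0.140 to 0.0358 for *fn1a*, -0.132 to 0.132 for *lamb1a*, -0.0703 to 0.210 for *lamc1* and -0.132 to 0.520 for *lama5*. The *fn1b* to *fn1a* difference ranged from -0.82 to -0.56. With the replicate block it was -0.65 (exact sign flips p = 0.125). The block called 88 records higher and 93 lower, against 53 and 64 without it, and included all 117 earlier calls, and it changed the call of no kept member. DESeq2 called 83 higher and 86 lower. *has2* and *fn1b* passed with the block, DESeq2, RLE scaling and both other filters. With no filter 53 members entered the test, and with a CPM above 2 in 5 libraries 16. The causes were not tested. Whether depth or low expression limits the 41 members not kept was not tested. In a single library 3 counts are 0.32 to 1.47 CPM of all its counts, without TMM scaling.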
